A study of Homo sapiens with 12 samples.

Results

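The teneurins are the 4 genes TENM1, TENM2, TENM3 and TENM4, taken here as the 4 rows of those names among the 27011 gene rows of the RNA-seq and Ribo-seq count tables. In HEK293T cells that lacked 4EHP, TENM1 mRNA stood 36.4-fold below wild type, and in cells that lacked GIGYF1 and GIGYF2 it stood 9.31-fold below. TENM3, the most abundant member, lay slightly above wild type in the first knockout and below it in the second. TENM4 was low, and TENM2 was close to or under the counting limit in every library. The 4 genes were chosen with the values of these libraries known, so their levels and differences are given as a description, with standard errors (SE) and no test.

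HEK293T is a human embryonic kidney cell line. The genotypes were WT (wild type), 4EHP-null, and GIGYF1/2-null, which lacks GIGYF1 and GIGYF2 together. They were harvested 24 h after plating on 15 cm dishes, and no group received a treatment. RNA-seq measured mRNA, and Ribo-seq counted the mRNA fragments that ribosomes protect (footprints). There were 2 libraries for each genotype in each assay, 12 together. The series record calls them biological replicates, but the labels do not say whether they were separate cultures, or how many clones each null line stands for, so standard errors and p-values measure only the spread between these libraries. 4EHP is a cap-binding protein that does not recruit the translation machinery, and the GIGYF proteins are its partners in repressing mRNAs.

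Depth ran from 26143118 to 38175701 counts in the RNA-seq libraries and from 6536493 to 10816080 in those of Ribo-seq. As a check of the labels, EIF4E2, the gene of 4EHP, had 51.0 and 46.7 mRNA CPM (counts divided by the scaled size of the library) in 4EHP-null libraries against 123 and 123 in WT. GIGYF1 had 22.4 and 26.0 CPM in GIGYF1/2-null libraries against 41.2 and 40.8 in WT. GIGYF2 mRNA was not lower there, at 96.7 and 81.8 CPM against 81.2 and 66.1 in WT. Its footprints overlapped WT too, at 81.6 and 51.7 CPM against 90.8 and 63.9. GIGYF1 footprints were lower, at 1.70 and 2.74 CPM against 8.69 and 6.72 in WT. The loss of GIGYF2 therefore rests on the label, since neither assay shows it. The 7 genes listed as typical of HEK293T were all detected in every genotype, but their summed mRNA level was 708 to 829 CPM in 4EHP-null libraries, 881 to 1127 in GIGYF1/2-null and 1002 to 1154 in WT. Of 12 neuronal genes, whose cell type also expresses teneurins, 6 were below 1 CPM in all libraries of each genotype. Their summed level was 94 to 110 CPM in 4EHP-null, 103 to 126 in GIGYF1/2-null and 111 to 122 in WT libraries. PTPRC, a leukocyte gene, and COL1A2, a fibroblast gene, had 0 mRNA counts in every genotype. Of 8 leukocyte genes, 6 were below 1 CPM in all libraries of each genotype. Their summed level was 5.05 to 5.08 CPM in WT, 4.57 to 5.01 in 4EHP-null and 5.88 to 5.98 in GIGYF1/2-null libraries. Of 8 fibroblast genes, 6 were below 1 CPM in WT and 5 in each knockout. They summed to 13.9 to 14.6 CPM in GIGYF1/2-null, 8.59 to 10.1 in 4EHP-null and 7.90 to 8.98 in WT libraries. Of 3 fibroblast genes tested in mRNA, edgeR called 1 higher in 4EHP-null and 2 higher in GIGYF1/2-null cells. Of all tested genes, 6.47% and 5.2% were called higher. The part of these shifts in the teneurin values was not tested.

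Teneurins are large transmembrane proteins with a short cytoplasmic part and a long extracellular part of EGF-like repeats, a beta-propeller and a barrel of YD repeats. They act between cells: teneurins bind each other and bind latrophilins, adhesion G protein-coupled receptors on the facing membrane, and FLRT proteins join that complex. In the nervous system they are known for matching the sides of developing synapses and for guiding axons.

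The promoters are shown first, as the only sequence windows of the teneurin genes printed here. Whether they bear on the levels or differences of the members was not tested. Each window is the 250 bases before an annotated transcript start in RefSeq, build GRCh38.p14, read 5′ to 3′ on the gene's own strand, with every CG dinucleotide in capitals. The TENM1 window is chrX:125204313-125204562 on the minus strand, the TENM3 window is chr4:182143713-182143962 on the plus strand and the TENM4 window is chr11:79441031-79441280 on the minus strand.
TENM1: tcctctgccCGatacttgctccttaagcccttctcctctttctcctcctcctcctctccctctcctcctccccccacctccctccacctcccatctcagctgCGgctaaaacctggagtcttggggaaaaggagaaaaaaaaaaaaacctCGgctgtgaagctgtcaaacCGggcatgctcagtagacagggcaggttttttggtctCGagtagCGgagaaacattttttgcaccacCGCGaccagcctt
TENM3: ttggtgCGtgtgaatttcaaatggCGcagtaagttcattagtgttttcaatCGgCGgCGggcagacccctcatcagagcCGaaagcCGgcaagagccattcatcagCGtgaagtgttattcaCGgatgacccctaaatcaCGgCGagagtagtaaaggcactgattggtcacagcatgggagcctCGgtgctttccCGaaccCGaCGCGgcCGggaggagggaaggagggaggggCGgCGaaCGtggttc
TENM4: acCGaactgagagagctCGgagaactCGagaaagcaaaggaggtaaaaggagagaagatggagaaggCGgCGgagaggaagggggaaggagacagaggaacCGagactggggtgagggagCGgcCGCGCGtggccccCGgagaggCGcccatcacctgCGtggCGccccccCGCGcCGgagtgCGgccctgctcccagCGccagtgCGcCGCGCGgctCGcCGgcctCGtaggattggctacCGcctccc

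The TENM1 window holds 8 CG dinucleotides and 54% G and C. The TENM3 window holds 20 CG dinucleotides and 56.8% G and C, and the TENM4 window 27 and 69.2%. The median over 35114 promoter windows of the same length was 11 CG dinucleotides, so TENM1 lies below it and TENM3 and TENM4 above it. Of all windows, 43.7% held fewer CG dinucleotides than TENM1, 67.6% fewer than TENM3 and 82.3% fewer than TENM4. RefSeq lists a further start for TENM1, with 1 CG dinucleotide, and a further start for TENM3, with 35. TENM2 has 2 listed starts, not printed here, with 1 and 4 CG dinucleotides. Short promoter motifs were searched on both strands. The motif TATAAA was in none of the 3 printed windows and in 10.7% of all windows. It was in the TENM2 window with 1 CG dinucleotide. The motif GGGCGG was in the TENM3 window alone of the 3 and in 42.6% of all windows, and the motif CCAAT was in the TENM3 and TENM4 windows and in 32.0% of all windows. CCAAT was also in the window of the further TENM1 start, and GGGCGG in that of the further TENM3 start. These are matches of letters, and the start that HEK293T cells use was not determined here.

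TENM1, the X-linked member, had 30.3 and 27.1 mRNA CPM in the 2 WT libraries, from 894 and 1008 counts. In the 4EHP-null libraries it had 0.611 and 0.991 CPM, from 20 and 26 counts. The GIGYF1/2-null libraries held 3.45 and 2.72 CPM, from 109 and 93 counts. WT libraries were highest, GIGYF1/2-null libraries lay between and 4EHP-null libraries were lowest, with no overlap between any of the 3 groups. On the log2 scale TENM1 mRNA differed from WT by -5.19 ± 0.21 in 4EHP-null cells and by -3.22 ± 0.17 in GIGYF1/2-null cells. Both values share the WT libraries. Compared directly, TENM1 mRNA was 1.97 ± 0.25 higher on the log2 scale in GIGYF1/2-null than in 4EHP-null cells. Among the 15637 genes tested, its log2 difference was rank 23 from the lowest in 4EHP-null and rank 9 in GIGYF1/2-null cells. Bulk libraries do not tell apart fewer cells with TENM1 mRNA and less TENM1 mRNA in each cell.

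TENM1 footprints showed the same order of genotypes. WT libraries had 11.6 and 12.01 CPM, from 80 and 127 counts. The 4EHP-null libraries had 0.315 and 0.136 CPM, which are 2 counts and 1 count, and GIGYF1/2-null libraries had 1.46 and 0.885 CPM, from 12 and 10 counts. The 3 groups did not overlap, and 4EHP-null libraries stood under the limit of 3 counts at which a library is read here as detecting a gene. From the summed counts, 3 against 207, footprints were 54.1-fold lower in 4EHP-null than in WT cells, with an exact 95% counting interval of 18.2 to 264. In GIGYF1/2-null cells they were 10.5-fold lower, with an interval of 6.77 to 17.2. The fitted log2 differences were -5.66 ± 0.43 and -3.37 ± 0.29, rank 5 and rank 2 from the lowest of 14722 genes. TENM1 passed the filter on low footprint counts only through its WT libraries. Its low ranks against WT follow in part from that filter and are no support. The SE of the 4EHP-null value understates its error, since the value rests on 3 counts. The counting interval of 18.2 to 264 is the wider guide.

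TENM3 carried most of the teneurin mRNA. WT libraries had 49.5 and 52.3 CPM, 4EHP-null libraries 57.5 and 59.4 CPM, and GIGYF1/2-null libraries 34.3 and 37.9 CPM. Both 4EHP-null libraries were above both WT libraries and both GIGYF1/2-null libraries were below them. The log2 differences from WT were 0.20 ± 0.09 and -0.50 ± 0.09, and GIGYF1/2-null cells were 0.69 below 4EHP-null cells (-0.69 ± 0.09). TENM3 footprints were at 46.9 and 52.1 CPM in WT, 59.4 and 67.7 in 4EHP-null and 33.8 and 42.7 in GIGYF1/2-null libraries. Again no groups overlapped and the order was the same. The log2 differences in footprints were 0.36 ± 0.16 and -0.37 ± 0.16 against WT, and -0.73 ± 0.16 between the knockouts. In the authors' deposited table the log2 differences of TENM3 from WT were 0.19 and -0.48 in mRNA and 0.41 and -0.34 in footprints, and those of TENM1 mRNA were -5.19 and -3.21.

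TENM4, whose gene also hosts the microRNA gene MIR708, had 2.20 and 2.42 mRNA CPM in WT libraries. The 4EHP-null libraries had 1.28 and 1.45 CPM, both lower, and GIGYF1/2-null libraries had 2.34 and 2.98 CPM, which overlapped WT. The log2 differences were -0.76 ± 0.27 in 4EHP-null and 0.20 ± 0.25 in GIGYF1/2-null cells, and 0.97 ± 0.26 between the knockouts. Its footprints numbered 4 and 10 in WT, 5 and 4 in 4EHP-null and 14 and 12 in GIGYF1/2-null libraries, too few to pass the filter on low counts. From the summed footprint counts the ratio to WT was 0.821 in 4EHP-null cells, with an exact 95% counting interval of 0.313 to 2.04. In GIGYF1/2-null cells it was 1.66, with an interval of 0.836 to 3.44. The 4EHP-null libraries overlapped WT and both GIGYF1/2-null libraries lay above both WT libraries, and at this depth the intervals run from below 1 to above it.

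TENM2 had 0 and 1 mRNA counts in WT, 2 and 1 in 4EHP-null and 1 and 5 in GIGYF1/2-null libraries. A limit of 3 counts corresponds to 0.0807 to 0.114 CPM in these libraries, and 1 GIGYF1/2-null library, at 0.146 CPM, lay above it. In Ribo-seq a single count was found, in 1 WT library, and the other 5 libraries had 0. No fold is given for TENM2, since its groups are at or under that limit.

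**Figure D1:**
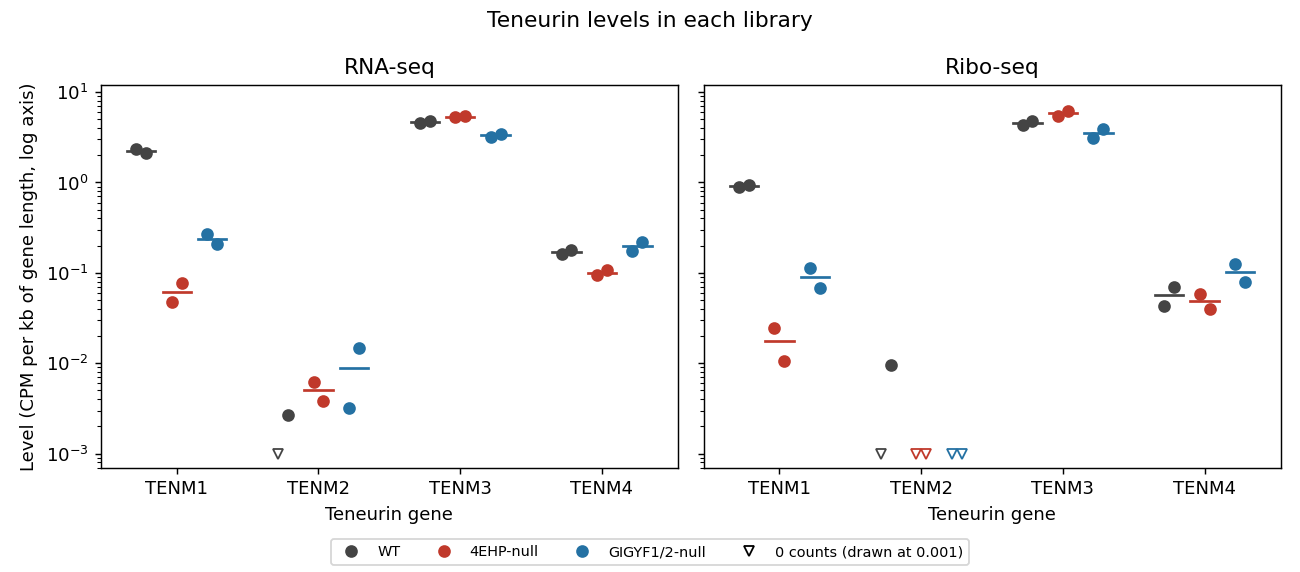
Teneurin levels in each library, in CPM per kb of gene length on a log axis, for RNA-seq (left) and Ribo-seq (right). Points are libraries, bars are means of 2 libraries (left out where a library had 0 counts), and open triangles are libraries with 0 counts. The mean mRNA level of TENM1 is 2.23 CPM per kb in WT, 0.0621 in 4EHP-null and 0.239 in GIGYF1/2-null libraries, while the TENM3 means lie between 3.31 and 5.36.

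The filter on low counts was passed by 3 of the 4 genes in RNA-seq (TENM1, TENM3 and TENM4) and by 2 in Ribo-seq (TENM1 and TENM3). In mRNA, 4EHP-null and WT libraries did not overlap for 3 of these 3, beside 57.4% of all tested genes. GIGYF1/2-null and WT libraries did not overlap for 2 of 3, beside 53.1%, and the 2 knockouts for 3 of 3, beside 62.4%. In footprints both genes had separate groups in each comparison, beside 51.7%, 47.9% and 53.9% of all tested genes. TENM1 is among them only because its WT libraries passed the footprint filter, also where the knockouts are compared with each other. The genes were chosen on these libraries, and nothing is read from these counts.

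Levels of different teneurins were compared per kb of gene length, since the genes are 9929 to 13548 bases long in the deposited tables. In WT mRNA the order was TENM3 at 4.68 ± 0.18 CPM per kb (SD, n = 2), TENM1 at 2.23 ± 0.175, TENM4 at 0.171 ± 0.0113 and TENM2 at 0.00135, and the libraries of neighbouring genes in that order did not overlap. In 4EHP-null mRNA TENM1 was lower than TENM4, at 0.0474 and 0.0768 against 0.0947 and 0.107 CPM per kb. In GIGYF1/2-null mRNA TENM1, at 0.268 and 0.211, overlapped TENM4, at 0.173 and 0.220 CPM per kb. TENM3 was first in all 12 libraries.

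The makeup of the family differed between genotypes. TENM1 supplied 33.3% and 29.7% of the summed teneurin mRNA per kb in WT libraries. Its share was 0.874% and 1.36% in 4EHP-null and 7.45% and 5.38% in GIGYF1/2-null libraries. TENM3 supplied 64.4% and 67.8% in WT, 97.3% and 96.7% in 4EHP-null and 87.7% and 88.6% in GIGYF1/2-null libraries. The summed mRNA level of the 4 genes was 7.06 and 7.09 CPM per kb in WT, 5.42 and 5.64 in 4EHP-null and 3.59 and 3.92 in GIGYF1/2-null libraries. WT was therefore highest and GIGYF1/2-null lowest in family mRNA, with no overlap, although 4EHP-null cells had the least TENM1. In footprints the family sum in 4EHP-null libraries, 5.53 and 6.27 CPM per kb, overlapped WT at 5.25 and 5.80, and GIGYF1/2-null libraries at 3.34 and 4.07 were below both.

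The ratio of footprint CPM to mRNA CPM differed between the members within WT cells. It was 0.411 for TENM1, 0.972 for TENM3 and 0.33 for TENM4, beside a median of 0.715 over 13257 genes tested in both assays. Over every pairing of a Ribo-seq with an RNA-seq library, TENM1 ran from 0.383 to 0.443 and TENM3 from 0.897 to 1.05, with no overlap. TENM3 thus lay above the median and TENM1 below it. TENM4 did not pass the footprint filter and is not among the 13257 genes. Its WT ratio rests on 4 and 10 footprint counts, ran from 0.239 to 0.429 and overlapped that of TENM1. The TENM4 ratio was 0.488 in 4EHP-null and 0.518 in GIGYF1/2-null cells, with ranges that overlapped WT. The TENM3 ratio was 1.09 in 4EHP-null and 1.06 in GIGYF1/2-null cells, and the TENM1 ratio 0.282 and 0.379. The TENM1 ratio in 4EHP-null cells rests on 3 footprint counts and ran from 0.138 to 0.515 over the pairings, and in GIGYF1/2-null cells from 0.256 to 0.535, so both ranges overlapped that of WT. The ratio does not take the coding share of each mRNA into account.

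Translation efficiency (TE) is the footprint difference between genotypes minus the mRNA difference. For TENM1 it was -0.51 ± 0.77 on the log2 scale in 4EHP-null and -0.15 ± 0.37 in GIGYF1/2-null cells against WT. For TENM3 it was 0.18 ± 0.17 and 0.14 ± 0.17, and between the knockouts -0.04 ± 0.17. The TENM3 value in 4EHP-null cells was about as large as its SE, and the other 4 were smaller than theirs. The wide SE of TENM1 in 4EHP-null cells goes with its 3 footprint counts there. In the authors' deposited table the TE differences of TENM3 were 0.21 and 0.15.

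**Figure D2:**
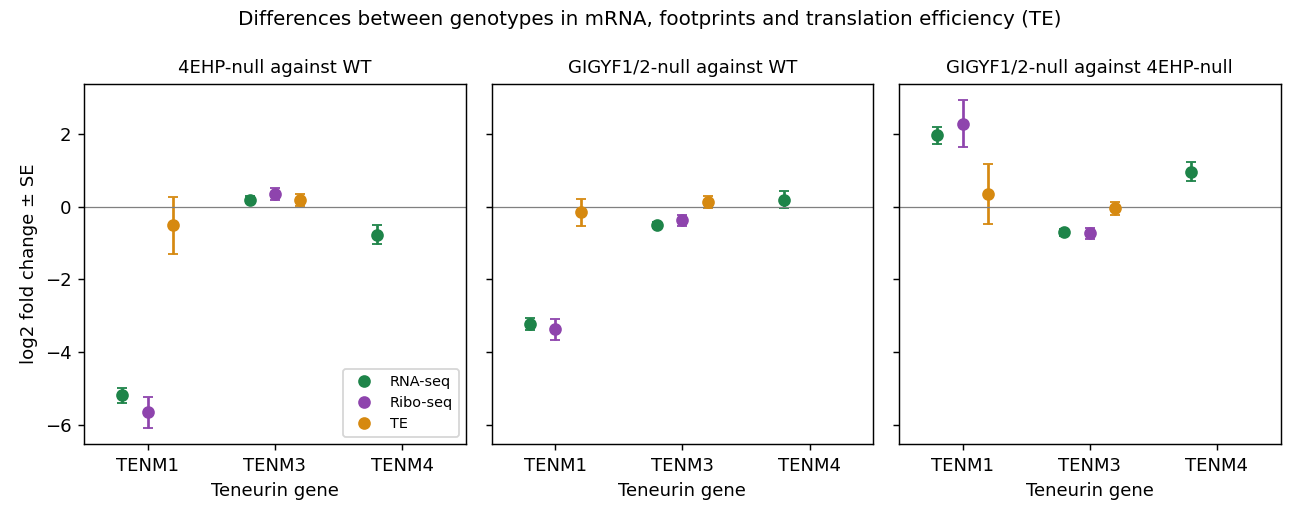
Log2 fold change ± SE of TENM1, TENM3 and TENM4 in the 3 comparisons, for mRNA (RNA-seq), footprints (Ribo-seq) and TE. Footprint and mRNA points of TENM1 lie together far below 0 against WT (-5.66 and -5.19 in 4EHP-null), and all TE points have bars that reach or nearly reach 0.

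The 4 gene lists used from here on were chosen with earlier results of these data known. Their calls and shares are therefore a description and not independent evidence. The genes that encode binding partners, or receptors of those partners, were described from a list of 10 latrophilins, FLRT proteins and UNC5 receptors, of which 8 passed the filter in RNA-seq. The UNC5 receptors are listed as binders of FLRT proteins, not as teneurin receptors. The list is called receptors and co-ligands, or partner genes, below. In 4EHP-null cells 4 of the 8 rose and 1 fell by edgeR's quasi-likelihood test (Benjamini-Hochberg adjusted over all genes), beside 13.1% of all tested genes called (6.47% higher and 6.63% lower), and the median log2 difference of the 8 was 0.18 against -0.003 for all genes. ADGRL3, a latrophilin that binds teneurins and FLRT3, had 15.7 and 17.3 CPM in WT and rose to 26.7 and 30.1 CPM (log2 difference 0.78 ± 0.13, adjusted p = 0.00219). Its close relative ADGRL1 rose by 0.45 ± 0.09 (edgeR adjusted p = 0.00582) and ADGRL2 by 0.29 ± 0.08 (adjusted p = 0.0336). UNC5C, a netrin receptor that also binds FLRT proteins, rose by 0.48 ± 0.12 (edgeR adjusted p = 0.0164). FLRT3 fell from 3.90 and 4.79 to 2.44 and 2.78 CPM (-0.74 ± 0.22, edgeR adjusted p = 0.0401). With any 1 of the 4 libraries left out, 1 or 2 of the 5 calls were made, and ADGRL3 was called each time, with ADGRL1 the other. DESeq2 made no call for FLRT3 (adjusted p = 0.0807).

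In GIGYF1/2-null cells 1 of the same 8 rose and 3 fell, beside 11.9% of all tested genes called (5.2% higher and 6.75% lower), and their median log2 difference was -0.58 against 0.00518 for all genes. UNC5C fell from 15.9 and 16.9 to 6.33 and 7.54 CPM (-1.24 ± 0.12, edgeR adjusted p = 7.07e-05), and was called with each library left out. ADGRL3 fell to 9.56 and 12.2 CPM (-0.61 ± 0.13, edgeR adjusted p = 0.0116) and FLRT3 to 2.34 and 2.11 CPM (-0.97 ± 0.22, edgeR adjusted p = 0.012). ADGRL1 rose by 0.30 ± 0.09 (edgeR adjusted p = 0.0434). The ADGRL3 call ended without WT replicate 2 (adjusted p = 0.0836) or GIGYF1/2-null replicate 1 (0.0559), and the FLRT3 call without WT replicate 2 (0.123) or GIGYF1/2-null replicate 2 (0.0706). The ADGRL1 call ended without WT replicate 1 (0.342) or either GIGYF1/2-null library (0.105 and 0.0763), and where WT and GIGYF1/2-null libraries were fitted alone (0.0711).

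Against each other, the knockouts differed in 4 of the 8 partner genes, all lower in GIGYF1/2-null cells, beside 24.4% of all tested genes (11.4% higher and 13% lower). ADGRL3 differed by -1.38 ± 0.13 (edgeR adjusted p = 1.89e-05) and UNC5C by -1.72 ± 0.12 (edgeR adjusted p = 1.64e-06). ADGRL2 differed by -0.35 ± 0.08 (adjusted p = 0.00824) and UNC5B by -0.34 ± 0.10 (adjusted p = 0.0322). ADGRL2 lost its call without either 4EHP-null library (adjusted p = 0.0531 and 0.0563) and UNC5B without 3 of the 4 libraries (0.103 to 0.181, all but GIGYF1/2-null replicate 2) and under upper-quartile scaling (0.0709). ADGRL3 and UNC5C therefore lay above WT in one knockout and below it in the other, which is also the order of the TENM3 values. For TENM3 this order is a description of values that chose it.

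**Figure D3:**
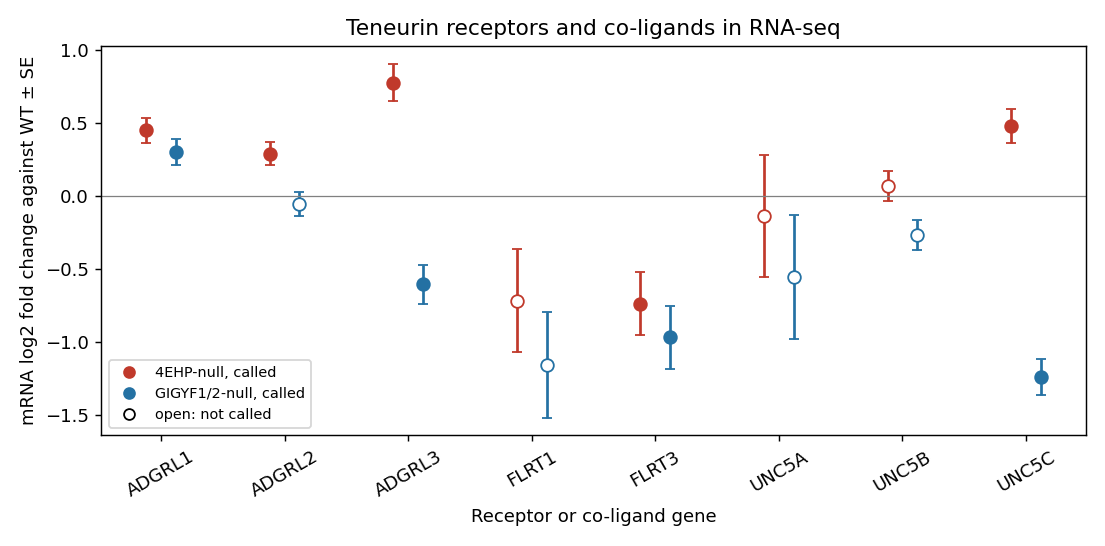
mRNA log2 fold change against WT ± SE of the 8 tested latrophilin, FLRT and UNC5 genes, in 4EHP-null (red) and GIGYF1/2-null (blue) cells. Filled points passed the edgeR threshold: ADGRL3 (0.78 and -0.61) and UNC5C (0.48 and -1.24) are filled on opposite sides of 0.

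Footprints of 6 of the 10 partner genes passed the filter. None was called in 4EHP-null cells by edgeR or DESeq2, with 2 at an unadjusted p under 0.05, beside 3.04% of all tested genes called (1.58% higher and 1.46% lower). With the replicate number as a block, 2 were called, ADGRL2 (0.39) and ADGRL3 (0.63). In GIGYF1/2-null cells UNC5C footprints fell by 1.28 on the log2 scale (-1.28 ± 0.19, edgeR adjusted p = 0.00604), 1 of 6 beside 2.09% (0.727% higher and 1.36% lower), and the block added ADGRL3, FLRT3 and UNC5B, all lower. Without WT replicate 2 the UNC5C call ended (adjusted p = 0.0746). Between the knockouts ADGRL3 (-1.26 ± 0.23, edgeR adjusted p = 0.00596) and UNC5C (-1.37 ± 0.19, edgeR adjusted p = 0.00148) were lower in GIGYF1/2-null cells, 2 of 6 beside 10.8% (3.98% higher and 6.8% lower). The block called 4, adding ADGRL2 and FLRT3, and the ADGRL3 call ended without 4EHP-null replicate 2 (adjusted p = 0.0608).

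Of a list of partners inside the cell or beside the teneurins in the membrane, 6 genes are given here, MBD1, HINT1, ZIC1, MITF, DAG1 and PTK2. None of these 6 passed the edgeR or the DESeq2 threshold in mRNA or footprints in any of the 3 comparisons. An unadjusted p under 0.05 was reached by 4 of the 6 mRNAs in 4EHP-null cells, by 0 in GIGYF1/2-null cells and by 1 between the knockouts, beside 27.3%, 25.3% and 37% of all tested genes, and by no footprint. The lowest mRNA value against WT was that of ZIC1, a zinc-finger transcription factor, at -0.68 ± 0.32 in 4EHP-null cells (edgeR adjusted p = 0.199). The highest was that of MITF, another transcription factor, at 0.33 ± 0.14 in 4EHP-null cells (adjusted p = 0.15).

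Other synaptic adhesion genes, which work at the same contacts as teneurins, gave 7 higher and 4 lower of 32 tested mRNAs in 4EHP-null cells and 4 higher and 3 lower in GIGYF1/2-null cells. That is 34.4% and 21.9% called, beside 13.1% and 11.9% of all genes, and the medians were 0.05 and 0.00. NRXN3, a presynaptic neurexin, fell from 10.97 to 0.305 CPM in 4EHP-null cells (-5.15 ± 0.26, edgeR adjusted p = 9.86e-08), a value close to that of TENM1. NCAM1, a homophilic adhesion molecule, fell by 1.21 (adjusted p = 3.17e-05). CNTN1, a contactin, rose by 0.86 ± 0.13 (edgeR adjusted p = 0.00105), and SLITRK5 and CLSTN3 rose by 0.53 and 0.56 (adjusted p = 0.00534 and 0.00652). PTPRD, a receptor phosphatase of presynaptic contacts, fell in both knockouts, with log2 differences of -1.56 ± 0.25 and -2.90 ± 0.28 (edgeR adjusted p = 0.00169 and 5.39e-05). In GIGYF1/2-null cells CLSTN2 rose by 1.67 ± 0.29 (edgeR adjusted p = 0.00269), NRXN2 by 1.14 ± 0.16 (adjusted p = 0.000788) and LRRTM4 by 1.30 (adjusted p = 0.0296). NLGN2, a neuroligin of inhibitory synapses, fell there by 0.36 (adjusted p = 0.0361) and NRXN3 by 0.55 (adjusted p = 0.0454). The NLGN2 call ended with any 1 of the 4 libraries left out (adjusted p = 0.0885 to 0.17) and under upper-quartile scaling (0.0607). That of NRXN3 in GIGYF1/2-null cells ended without WT replicate 2 (0.35) or either GIGYF1/2-null library (0.168 and 0.0701), under upper-quartile scaling (0.066) and with DESeq2 (0.0922). LRRTM4 lost its call in GIGYF1/2-null cells without WT replicate 1 or GIGYF1/2-null replicate 1. It was also higher in 4EHP-null cells, by 1.49 ± 0.35 (edgeR adjusted p = 0.0141). That call was lost without WT replicate 1 or 4EHP-null replicate 2. SLITRK5 and CLSTN3 lost their calls in 4EHP-null cells without WT replicate 1.

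Axon guidance genes gave 10 higher and 2 lower of 62 tested mRNAs in 4EHP-null cells and 8 higher and 8 lower in GIGYF1/2-null cells. That is 19.4% and 25.8% called, beside 13.1% and 11.9% of all genes, with medians of -0.05 and 0.01. EPHA3, an ephrin receptor, rose by 1.11 ± 0.12 in 4EHP-null cells (edgeR adjusted p = 0.000134). It fell by 0.48 in GIGYF1/2-null cells (-0.48 ± 0.13, edgeR adjusted p = 0.0332). EPHA3 was no longer called there when WT replicate 2 was left out (0.231) or either GIGYF1/2-null library (0.0669 and 0.111), under upper-quartile scaling (0.0503) and where only the libraries compared were fitted (0.0542). SEMA3G, a secreted semaphorin, rose in both, by 0.80 ± 0.14 and 0.77 ± 0.14 (edgeR adjusted p = 0.0029 and 0.00337), and its relative SEMA3D rose by 1.07 in 4EHP-null cells (adjusted p = 0.00274). SLIT2, a ligand of ROBO receptors, fell by 0.42 in 4EHP-null cells (adjusted p = 0.00435), and EPHB1 fell by 0.78 (adjusted p = 0.0175). The SLIT2 call ended without WT replicate 2 (0.0575) or 4EHP-null replicate 1 (0.0647) and that of EPHB1 with any 1 of the 4 libraries left out (0.0669 to 0.103). In GIGYF1/2-null cells EPHA10 rose by 1.19 ± 0.17 (edgeR adjusted p = 0.000833) and PLXNB1, a semaphorin receptor, by 0.81 (adjusted p = 0.00364). SEMA3C fell there by 1.96 (-1.96 ± 0.19, edgeR adjusted p = 5.13e-05), ROBO2, a Slit receptor, fell by 1.84 (adjusted p = 0.00078) and NRP1, a co-receptor of semaphorins, fell by 0.70 (adjusted p = 0.00216). PLXNB1 was also higher in 4EHP-null cells, by 0.67 ± 0.15 (edgeR adjusted p = 0.0119). That call was lost without WT replicate 2 or 4EHP-null replicate 1.

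In footprints, 2 of 28 adhesion genes rose and 2 fell in 4EHP-null cells, and 0 rose and 1 fell in GIGYF1/2-null cells; with the replicate block these were 5 and 5, and 2 and 3. For 54 axon guidance genes the counts were 2 and 1, and 0 and 3; with the block they were 5 and 5, and 2 and 7. Of all tested genes, 3.04% and 2.09% were called in footprints without the block, and 12.4% and 11.9% with it. Over all 4 lists, 28 mRNAs were called in 4EHP-null cells and 27 in GIGYF1/2-null cells. Fewer were called when any 1 library was left out, and the cause was not tested.

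Genes with the mRNA profile most like each teneurin were sought among 13794 genes, as the root mean square (RMS) difference in log2 CPM, centred on the WT mean, over the 6 RNA-seq libraries. No gene came close to TENM1: the nearest was NRXN3, at an RMS of 1.57, followed by SALL3, SNX19, MUM1L1 and LINC01158 at up to 2.06. All 5 shared the low level in 4EHP-null cells, but in GIGYF1/2-null cells they lay between -0.61 and 0.30 of WT on the log2 scale where TENM1 was at -3.22. NRXN3 also differed from TENM1 in footprints, which were lower by 1.03 (-1.03 ± 0.19) in 4EHP-null cells beside -5.66 for TENM1. TENM3 was matched closely by WDR91 (RMS 0.0193), then by CCDC28A, VGLL4, PROSER1 and ANKRD33B (up to 0.0641). TENM4 was matched by CLEC11A (RMS 0.0404), GAS5-AS1, CDH23, MRPL12 and GSTO1. CDH23 encodes a cadherin, and MRPL12 a mitochondrial ribosomal protein. An RMS of this kind grows with the size of the difference from WT. The distances around TENM1 are therefore not comparable with those around TENM3 and TENM4, and small differences find close matches more easily among 13794 genes.

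**Figure D4:**
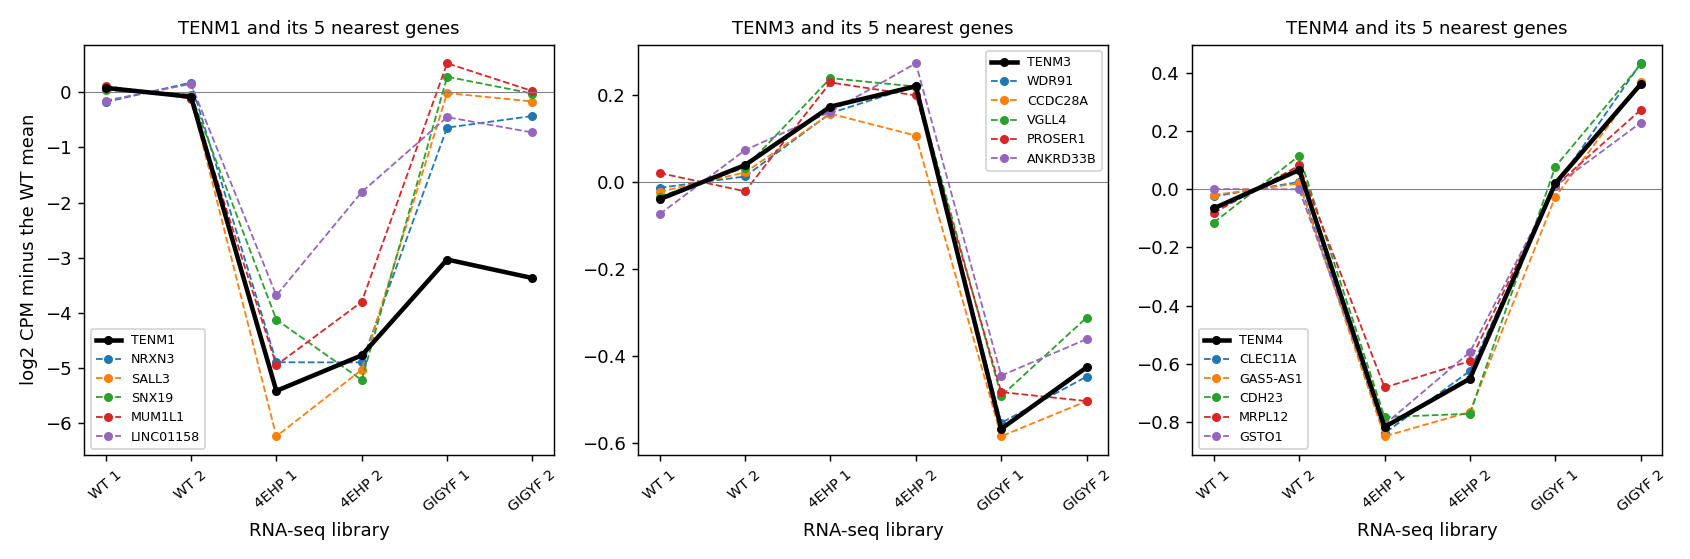
mRNA profiles of TENM1, TENM3 and TENM4 (black) and of the 5 genes nearest to each (dashed) over the 6 RNA-seq libraries, as log2 CPM minus the WT mean; the vertical scales differ. The 5 dashed lines follow TENM3 and TENM4 closely, while TENM1 leaves its nearest genes in the GIGYF1/2-null libraries.

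Neighbouring genes were compared to see whether whole stretches of chromosome moved with a teneurin, using the 5 tested genes on each side in RefSeq gene order. Around TENM1 the 10 neighbours had a median log2 difference of 0.10 in 4EHP-null and -0.09 in GIGYF1/2-null cells. STAG2, a cohesin subunit and the nearest tested gene on one side, was at 0.22 ± 0.10 and -0.23 ± 0.10. SMARCA1, a chromatin remodeller and the nearest on the other side, was at 0.18 ± 0.10 in 4EHP-null cells and fell by 0.66 in GIGYF1/2-null cells (-0.66 ± 0.11, edgeR adjusted p = 0.00165). In all, 1 of the 10 neighbours rose in 4EHP-null cells (THOC2) and 2 of 10 fell in GIGYF1/2-null cells (SMARCA1 and UTP14A), beside 13.1% and 11.9% of all tested genes. None approached the TENM1 values. The lowest was GLUD2 at -1.35 ± 0.54 in 4EHP-null cells (edgeR adjusted p = 0.127).

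Around TENM3 the medians of the 10 neighbours were 0.08 and 0.14, and VEGFC and WWC2 rose in GIGYF1/2-null cells, where TENM3 itself was lower. Around TENM4 the medians were -0.05 and 0.00, and FAM181B, the next gene, rose by 1.81 ± 0.49 in GIGYF1/2-null cells (edgeR adjusted p = 0.0291). FAM181B stood at -1.49 ± 0.68 in 4EHP-null cells (edgeR adjusted p = 0.182), the same signs as TENM4. Around TENM2 they were 0.06 and -0.02, and CCNG1 fell in 4EHP-null cells.

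**Figure D5:**
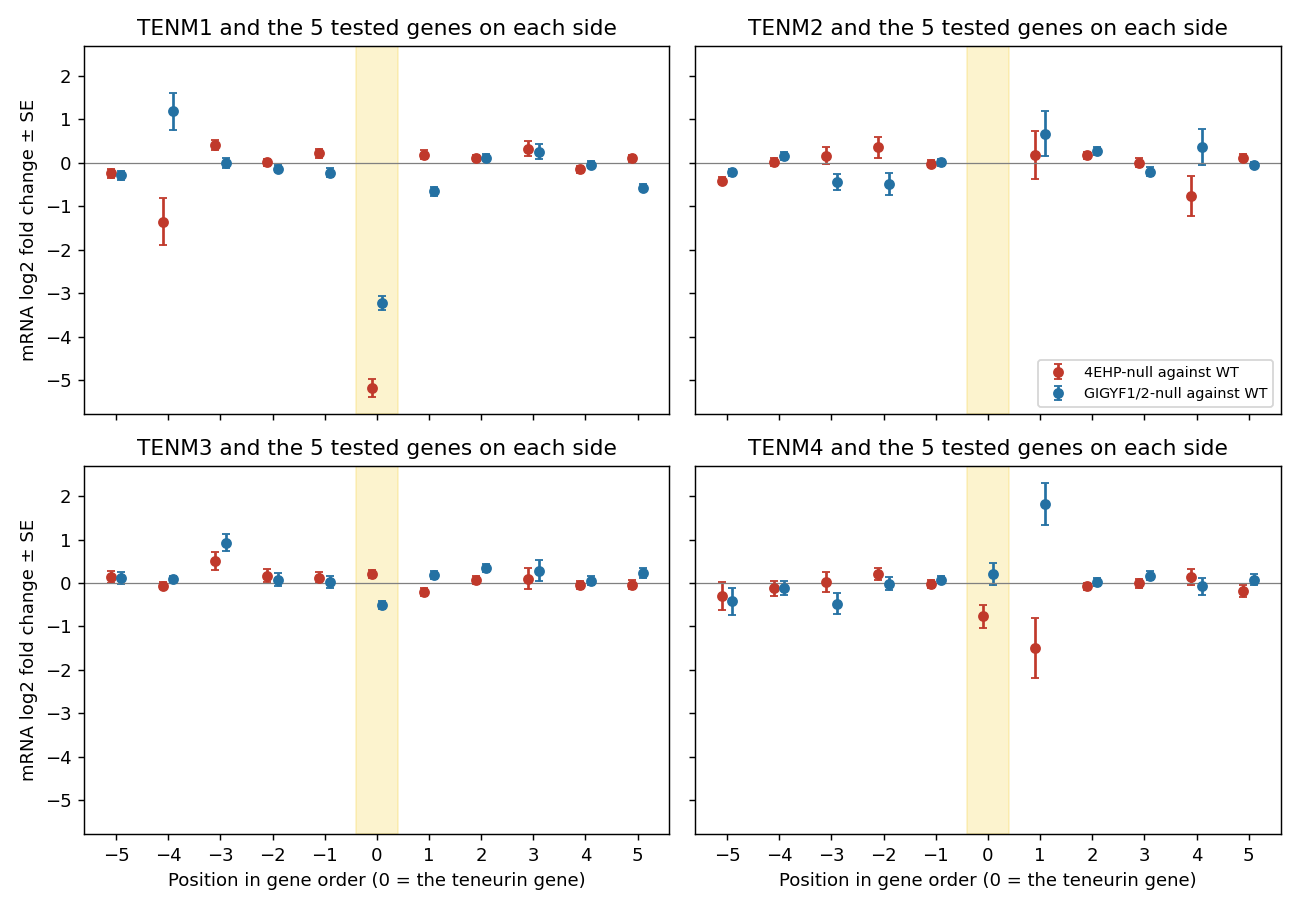
mRNA log2 fold change against WT ± SE of each teneurin (shaded, position 0) and of the 5 tested genes on each side in gene order, in 4EHP-null (red) and GIGYF1/2-null (blue) cells. TENM1 stands far below its neighbours, whose lowest value is -1.35, and TENM2 has no point because it did not pass the filter.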

How the data were processed

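RNA-seq and Ribo-seq of 12 HEK293T libraries were used as 2 deposited tables of raw counts per gene symbol, with no normalization per the file headers. The submitters' processing notes name Bowtie2, TopHat2, edgeR and the build hg19; for the counter, annotation and strand setting, nothing is recorded (not given in the sources used here). The authors' deposited comparison tables give log2 fold changes with p-values, and a dispersion score in the TE tables that was not used, per the file headers.

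The function filterByExpr took out low-count genes and left 15637 genes in RNA-seq, 14722 in Ribo-seq and 13257 for TE. Libraries were scaled by TMM within an assay, and edgeR 4.0.16 (R 4.3.3) fitted a quasi-likelihood test over the 6 libraries of an assay, called at a two-sided Benjamini-Hochberg adjusted p under 0.05. TE was the assay-by-genotype term over 12 libraries. The scripts were checked on simulated data. CPM use the TMM-scaled totals, and a count under 3 in a library is read as the floor. Each SE is the absolute log2 difference divided by the square root of the F value of its edgeR test, and can be too small where counts are few. Intervals are exact 95% counting intervals and cover counting error only. The members and the 4 lists tested were chosen with earlier results of these data known. The members therefore have no test, and the calls and shares of the lists are a description. In the list of inner partners, 1 further gene is not reported here.

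Named genes were the 4 teneurins, EIF4E2, GIGYF1 and GIGYF2, every called gene among the receptors and inner partners, up to 3 per direction with the smallest adjusted p in each of the 2 wider lists, the 5 nearest profiles (average log2 CPM of at least 0, prior count 2) and 5 tested neighbours per side; ZIC1 and MITF, the extremes of their list, were chosen after their values were seen. RefSeq matched 94.5% of symbols and, being of build GRCh38, was used for names, gene order and promoters, not for coordinates of the counts. Deviations of same-numbered Ribo-seq libraries from their group means correlated at 0.149, 0.314 and 0.224 over genes. These values do not settle whether the numbers pair the libraries. The main fits therefore ignored the replicate number, and counts with it as a block are given beside them. The fits were repeated with RLE or upper-quartile scaling, without the filter, with DESeq2 1.42.0, over only the libraries compared, with the replicate block, and leaving out each library.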

Additional observations from a re-analysis of the deposited data

Results flagged for a closer look

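TENM3 lay on opposite sides of WT in the 2 knockouts, above it in both 4EHP-null libraries and below it in both GIGYF1/2-null libraries of each assay. The knockouts differed by -0.69 on the log2 scale in mRNA and by -0.73 in footprints, and this difference was not tested because the gene was chosen on these libraries.

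Among the named partner, adhesion and guidance genes, 3 mRNAs rose in one knockout and fell in the other, and the difference between the knockouts passed edgeR's quasi-likelihood test. Of all tested genes, 13.1% were called in 4EHP-null cells, 11.9% in GIGYF1/2-null cells and 24.4% between the knockouts. The share of all genes called in opposite directions was not computed, so nothing is read from the count of 3. Between the knockouts the latrophilin gene ADGRL3 differed by -1.38, the netrin receptor gene UNC5C by -1.72 and the ephrin receptor gene EPHA3 by -1.59, each lower in GIGYF1/2-null cells. Their adjusted p-values between the knockouts were 1.89e-05, 1.64e-06 and 4.18e-06. The calls against WT were less stable than these: with 1 library left out, the UNC5C rise in 4EHP-null cells was called in 0 of 4 fits, the EPHA3 fall in GIGYF1/2-null cells in 1 of 4 and the ADGRL3 fall in GIGYF1/2-null cells in 2 of 4, while each of the 3 was called in 4 of 4 between the knockouts.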

How the results depend on the processing

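The 21 log2 values of the teneurins were refitted in 226 alternatives, and 212 moved by less than 1 SE. The 14 larger moves all came from leaving out 1 library. Under those fits TENM1 mRNA ranged from -5.54 to -4.85 in 4EHP-null and from -3.41 to -3.06 in GIGYF1/2-null cells against WT, and from 1.62 to 2.32 between the knockouts. TENM1 footprints ranged from -6.30 to -5.17 and from -3.71 to -3.01 against WT. TENM3 footprints ranged from -0.55 to -0.21 in GIGYF1/2-null cells and from -0.91 to -0.60 between the knockouts, and its TE from -0.0498 to 0.28 and from -0.23 to 0.09 in those comparisons. The TE of TENM1 also crossed 0 in some of these fits. Scaling moved the median of all genes by under 0.1.

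Counts of called genes moved more, and the cause was not tested. Over the 4 lists, called footprints against WT numbered 7 in 4EHP-null and 5 in GIGYF1/2-null cells, and 20 between the knockouts. Without the filter they were 15 and 10 against WT. With only the libraries compared, GIGYF1/2-null cells had 3, and DESeq2 gave 10 between the knockouts. Of the receptors and co-ligands, footprint calls without the filter were 1 in 4EHP-null and 3 in GIGYF1/2-null cells, and with only the libraries compared 1 in 4EHP-null cells. Leaving out 1 library gave 0 to 2, 2 to 4 and 3 to 17 list calls, and 0 to 1 and 1 to 2 receptor calls in the last 2 comparisons. In mRNA it gave 13 to 17, 17 to 20 and 27 to 41 list calls in place of 28, 27 and 42, and 1 to 2, 2 to 3 and 2 to 4 receptor calls in place of 5, 4 and 4.

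With the replicate number as a block, list calls in footprints were 22, 18 and 33, and receptor calls 2, 4 and 4; the teneurin values kept within 1 SE. In RNA-seq the deviations of same-numbered libraries correlated at 0.0701, 0.18 and 0.153, a range that overlaps that of Ribo-seq. Pairing was thus not settled in either assay. In RNA-seq the block made 42, 34 and 53 list calls. Among them were 2 of the 6 inner partners in 4EHP-null cells (0 without it). In GIGYF1/2-null cells 6 receptors were called, adding FLRT1 and UNC5B. Of all genes, 22.8%, 20.6% and 34.3% were then called in mRNA and 12.4%, 11.9% and 22.4% in footprints. Footprint depth limits TENM2, TENM4 and TENM1 in 4EHP-null cells.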

Other observations

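A row of the tables named LOC90768 is the gene that RefSeq calls TENM3-AS1, a transcript antisense to TENM3. It held 244 and 266 mRNA counts in WT, 271 and 185 in 4EHP-null and 208 and 232 in GIGYF1/2-null libraries, and 3 to 13 footprint counts. Whether the counting used strand is not stated by the labels or file headers, so its reads and those of TENM3 cannot be told apart where the genes overlap.

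Teneurin introns host microRNA genes. The hairpin rows of MIR708 and MIR5579, inside TENM4, and of MIR1305, inside TENM3, held 0 counts in every RNA-seq library, and MIR708 held 3 footprint counts in all. These libraries were made for mRNA and ribosome footprints, so the mature microRNAs were not measured.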
